A study of Mus musculus with 4 samples.

Results

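Haemoglobin RNA was examined in Osr1+ cells sorted from mouse limbs, together with RNA of a haem enzyme and a red cell membrane protein. The set was chosen by symbol and held 9 genes: the alpha-like globins *Hba-x*, *Hba-a1* and *Hba-a2*, the beta-like globins *Hbb-y*, *Hbb-bh1*, *Hbb-b1* and *Hbb-b2*, and the erythroid genes *Alas2* and *Slc4a1*. All 9 had a row among the 23284 genes counted. RNA was sequenced from 2 *Osr1* GCE/+ and 2 *Osr1* GCE/GCE embryos at E13.5, each sample being the limb cells of 1 C57BL/6J embryo. In both genotypes the GCE allele, a knock-in of eGFP with an inducible Cre, marked cells in which the *Osr1* locus was active. GCE/+ embryos kept 1 intact copy of *Osr1*, a zinc finger transcription factor of limb connective tissue, and GCE/GCE embryos had none, so there was no sample without the knock-in. Living cells were selected with propidium iodide and sorted on GFP, and the methods name no depletion of blood cells by antibody for the sequenced sort. The question put to these genes was how much blood RNA came with the sorted cells, of which developmental stage, and whether its amount differed between genotypes.

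Haemoglobin is assembled from alpha-like and beta-like chains, and each cluster switches genes during development. Primitive red cells arise in the yolk sac and circulate as nucleated cells. They use the alpha-like chain of *Hba-x* (zeta) and the beta-like chains of *Hbb-bh1* and *Hbb-y*, with *Hbb-bh1* preceding *Hbb-y* as these cells mature. Definitive red cells, made first in the fetal liver, use the adult genes *Hba-a1* and *Hba-a2* and the adult beta genes. The alpha chains of the adult genes are also made by primitive cells. *Alas2* encodes the erythroid form of the first enzyme of haem synthesis, and *Slc4a1* encodes band 3, the anion exchanger of the red cell membrane. GATA1 and KLF1 are the erythroid transcription factors that bind many of these genes.

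How far a count can be given to 1 globin depends on its sequence, so the first 50 coding bases are shown, taken from GENCODE vM21 transcripts (GRCm38). Capitals mark bases that differ from *Hba-a1* in the alpha group and from *Hbb-bt* in the beta group. *Hbb-bt* and *Hbb-bs* are the adult beta genes of the C57BL/6J haplotype.
Hba-a1: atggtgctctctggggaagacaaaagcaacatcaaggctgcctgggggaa
Hba-a2: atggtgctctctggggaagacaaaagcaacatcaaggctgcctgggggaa
Hba-x: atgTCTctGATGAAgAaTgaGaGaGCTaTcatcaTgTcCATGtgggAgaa
Hbb-bt: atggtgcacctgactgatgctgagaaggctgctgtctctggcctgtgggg
Hbb-bs: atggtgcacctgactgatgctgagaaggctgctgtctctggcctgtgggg
Hbb-bh1: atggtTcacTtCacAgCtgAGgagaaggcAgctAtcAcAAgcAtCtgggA
Hbb-y: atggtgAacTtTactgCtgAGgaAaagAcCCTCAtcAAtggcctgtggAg

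*Hba-a1* and *Hba-a2* did not differ in these bases, and differed at 1 of 429 over the whole coding sequence. *Hbb-bt* and *Hbb-bs* likewise differed at 1 of 444 coding bases. The embryonic genes stood apart: *Hba-x* differed from *Hba-a1* at 24 of the 50 bases shown, and *Hbb-bh1* and *Hbb-y* differed from *Hbb-bt* at 15 and 16. Over the whole aligned coding sequence *Hba-x* was 64.1% identical to *Hba-a1*, *Hbb-y* was 74.1% identical to *Hbb-bt*, and *Hbb-bh1* was 76.4% identical to *Hbb-y*.

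The same was computed for the 50-base paired reads of the study. For *Hba-a2*, 78.0% of all possible 150-base fragments had both 50-base ends also in a transcript of *Hba-a1*, and for *Hba-a1* 57.5% were shared with *Hba-a2*. The shares were 58.7% for *Hbb-bs* and 50.7% for *Hbb-bt*, each with the other. No fragment of *Hba-x*, *Hbb-y*, *Hbb-bh1* or *Slc4a1* was shared with another gene, and 8.63% of *Alas2* fragments were shared, with *Apex2* and *Mir3620*. Counts of the embryonic globins could therefore be given to 1 gene, while those of the adult pairs are uncertain, because the treatment of reads with several best positions is not given in the sources used here.

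**Figure D1:**
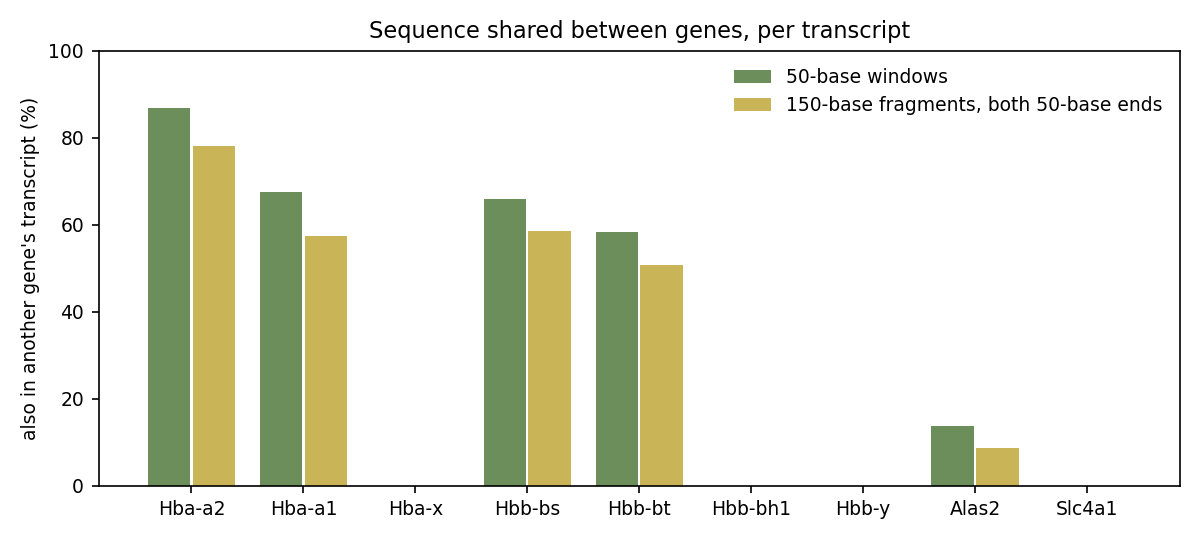
Share of each transcript's 50-base windows (green) and 150-base fragments (yellow) that also occurs in a transcript of another gene, in percent, for 9 genes of the GRCm38 annotation. Bars of the adult globins lie between 50.7% and 86.9%, and *Hba-x*, *Hbb-bh1*, *Hbb-y* and *Slc4a1* are at 0.

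The 250 bases before the start of *Hbb-y*, *Hba-x* and *Hbb-bs* are shown because the counts assigned to these genes rose and fell together among the samples, as described later. They come from the RefSeq promoter table of GRCm38.p6. Capitals mark GATAA (a core of GATA factor sites), CACCC (the core letters of KLF1 sites) and CCAAT, each on either strand, and TATAAA or CATAAA (forms of the TATA box) on the strand of the gene.
Hbb-y, chr7:103853208-103853457, minus strand: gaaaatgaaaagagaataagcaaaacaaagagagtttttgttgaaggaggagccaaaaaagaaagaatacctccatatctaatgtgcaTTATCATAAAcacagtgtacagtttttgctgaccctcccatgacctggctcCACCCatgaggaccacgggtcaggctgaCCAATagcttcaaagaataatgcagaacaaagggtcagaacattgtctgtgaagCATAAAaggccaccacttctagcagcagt
Hba-x, chr11:32276350-32276599, plus strand: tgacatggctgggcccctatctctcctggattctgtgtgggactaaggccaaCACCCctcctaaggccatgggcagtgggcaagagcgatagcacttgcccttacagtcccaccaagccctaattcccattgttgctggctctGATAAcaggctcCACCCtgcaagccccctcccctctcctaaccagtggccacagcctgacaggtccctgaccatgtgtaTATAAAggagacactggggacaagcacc
Hbb-bs, chr7:103827929-103828178, minus strand: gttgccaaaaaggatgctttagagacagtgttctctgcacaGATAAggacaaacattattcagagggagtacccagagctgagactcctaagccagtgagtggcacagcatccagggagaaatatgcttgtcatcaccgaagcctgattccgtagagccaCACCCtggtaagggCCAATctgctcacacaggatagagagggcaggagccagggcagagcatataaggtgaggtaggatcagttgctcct

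In the *Hbb-y* promoter, GATAA on the reverse strand began 162 bases before the start and overlapped a CATAAA by 1 base, and a second CATAAA began 29 bases before the start. In the *Hba-x* promoter, GATAA began 107 bases and TATAAA 28 bases before the start. The table held promoters of *Hba-x*, *Hba-a1*, *Hba-a2*, *Hbb-y*, *Alas2*, *Hbb-bt* and *Hbb-bs*. Each of these 7 windows held GATAA at least once and CACCC at least once, while over all 32851 windows of this length GATAA occurred in 22.6% and CACCC in 52.0%. The windows of *Hba-a1* and *Hba-a2* share almost all their sequence, so the 7 are not separate observations. CCAAT occurred in 33.8% of all windows and was absent from those of *Hba-x* and *Alas2*. TATAAA or CATAAA occurred in 12.8% of all windows and in those of *Hbb-y*, *Hba-x* and *Hbb-bt*. These are matches of letters and were not tested as binding sites.

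The 4 libraries held 60534526 and 52121596 counted fragments in GCE/+ and 58434455 and 61402140 in GCE/GCE. A level is given as CPM, the fragments of a gene per 1e6 counted in the sample after TMM scaling, and the floor of 3 fragments lay between 0.0490 and 0.0574 CPM. As a check of the genotypes, *Osr1* measured 81.9 and 79.1 CPM in GCE/+ and 11.9 and 13.9 CPM in GCE/GCE. *Xist*, transcribed from the inactive X chromosome of females, stood at 1142 CPM in GCE/GCE replicate 1, with 2.63 CPM as the next highest value.

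*Hbb-y*, the embryonic epsilon-type beta globin, was the most abundant member in every sample. It was counted 27363 and 7931 times in GCE/+ and 17320 and 16440 times in GCE/GCE, which gave 449 and 152 CPM against 298 and 269 CPM. Both GCE/GCE values thus lay between the GCE/+ values, and the 2 GCE/+ embryos differed 2.96-fold from each other. *Hba-x*, the embryonic zeta globin, was counted 2978 and 858 times in GCE/+ and 1793 and 1868 times in GCE/GCE. Its levels were 48.9 and 16.4 CPM against 30.9 and 30.5 CPM, the same order as for *Hbb-y*.

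*Hbb-bh1*, the earliest beta-like globin, was rare beside *Hbb-y*. It was counted 313 and 101 times in GCE/+ and 271 and 372 times in GCE/GCE, or 5.14 and 1.93 CPM against 4.67 and 6.08 CPM. GCE/GCE replicate 2 had the highest level and GCE/+ replicate 2 the lowest, and the groups overlapped.

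The later globins of the set had few fragments. *Hbb-b1*, an adult beta globin, was counted 175 and 71 times in GCE/+ and 152 and 130 times in GCE/GCE, which is 2.87 and 1.36 CPM against 2.62 and 2.12 CPM. *Hbb-b2* had 3 and 0 fragments in GCE/+ and 0 and 1 in GCE/GCE, at or under the floor in all samples. *Hba-a1* had 0 fragments in all 4 samples, an upper limit of 0.0490 to 0.0574 CPM for counting error alone. *Hba-a2* had 3 and 0 fragments in GCE/+ and 18 and 7 in GCE/GCE, so that its groups did not overlap, with GCE/GCE the higher as for 19.2% of all genes tested, and it did not pass the filter on low counts. Since most fragments of *Hba-a1* and *Hba-a2* exist in both genes, their near-zero counts say little about adult alpha globin RNA.

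The adult beta globin of this mouse strain was found under another name. A search for genes with the same pattern as the globins, described later, returned the row *Beta-s*, which RefSeq lists as a synonym of *Hbb-bs*. It is no member of the set and was added after its values were seen. It was counted 3382 and 896 times in GCE/+ and 2506 and 1864 times in GCE/GCE, or 55.5 and 17.1 CPM against 43.2 and 30.4 CPM. GCE/+ replicate 1 was highest and GCE/+ replicate 2 lowest, an order that the search by pattern had favoured. Which adult beta gene of C57BL/6J the rows *Hbb-b1* and *Hbb-b2* stand for could not be settled from the sources used here.

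*Alas2* and *Slc4a1* were both detected in every sample. *Alas2* was counted 268 and 131 times in GCE/+ and 276 and 252 times in GCE/GCE, or 4.40 and 2.50 CPM against 4.75 and 4.12 CPM. *Slc4a1* was counted 123 and 80 times in GCE/+ and 108 and 132 times in GCE/GCE, or 2.02 and 1.53 CPM against 1.86 and 2.16 CPM. For both genes GCE/+ replicate 2 was the lowest sample, and the groups overlapped.

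Levels of different genes were compared per kb of transcript, with lengths from the GRCm38 annotation (for *Hbb-b1* and *Hbb-b2*, the mean of *Hbb-bt* and *Hbb-bs*). In each of the 4 samples the order was *Hbb-y*, *Beta-s*, *Hba-x*, *Hbb-bh1*, *Hbb-b1*, *Alas2* and *Slc4a1*. On this scale the level of *Hbb-y* ranged from 240 to 710 CPM per kb, that of *Beta-s* from 27.3 to 88.4, and that of *Hba-x* from 20.5 to 61.0. The ranges of *Beta-s* and *Hba-x* overlapped among samples, although with these lengths *Beta-s* was 1.27 to 1.78 times higher within a sample. *Hbb-y* was 6.86 to 8.78 times higher than *Beta-s* and 11.1 to 12.2 times higher than *Hba-x*. The gene records of *Hba-x* and *Hbb-bs* begin inside the promoter windows shown above, so the lengths used (801 and 628 bases) may be too long. The order of *Beta-s* and *Hba-x* and these ratios depend on them. Records of the other genes with a promoter window begin inside it too, those of *Hbb-y* and *Hba-a2* by few bases. The lengths given to *Hbb-b1* and *Hbb-b2* and the percentages of shared fragments above rest on the same transcripts, so they carry this uncertainty as well. In CPM, without lengths, GCE/GCE replicate 2 had 30.5 for *Hba-x* and 30.4 for *Beta-s*. The ranges of *Hbb-bh1* (3.15 to 9.91 CPM per kb) and *Hbb-b1* (2.04 to 4.32) overlapped too, as did those of *Hbb-b1* and *Alas2* (1.23 to 2.33), while *Slc4a1* (0.337 to 0.474) lay below all of *Alas2*.

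**Figure D2:**
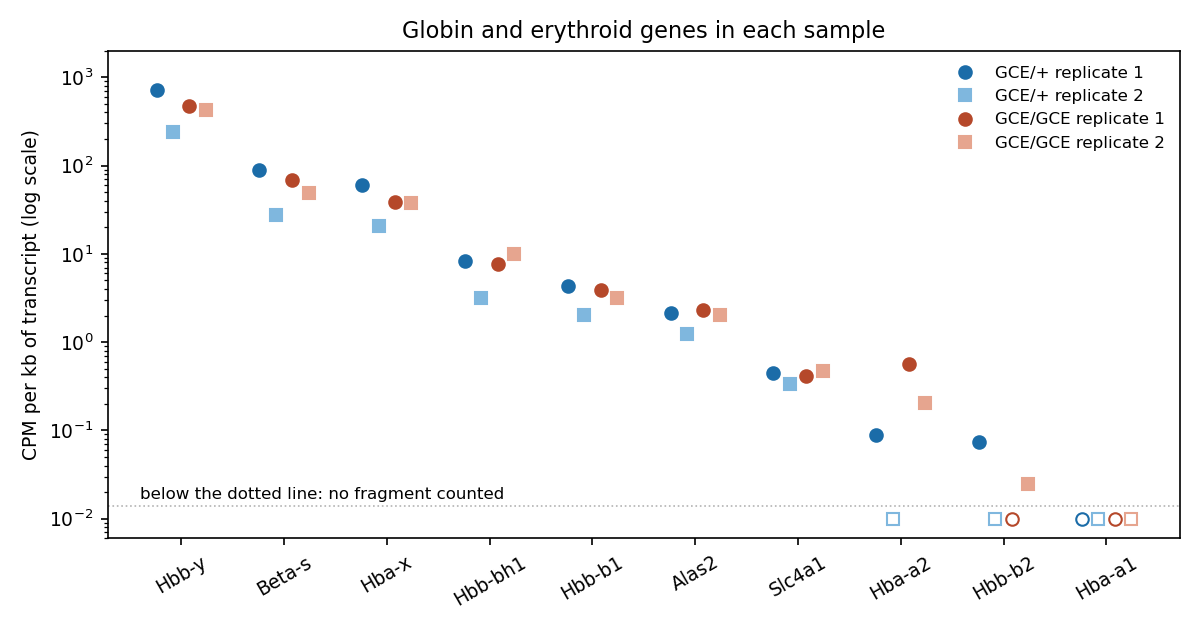
Levels of the 9 members and of *Beta-s* in each sample, in CPM per kb of transcript on a log scale. Filled points are measured values and open points under the dotted line are samples with 0 fragments. *Hbb-y* spans 240 to 710 CPM per kb, and *Hba-a2*, *Hbb-b2* and *Hba-a1* stay at or under 18 fragments in every sample.

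Globin RNA was a small part of each library. The 7 globins of the set summed to 506 and 171 CPM in GCE/+ and to 337 and 307 CPM in GCE/GCE, or 0.0509%, 0.0172%, 0.0335% and 0.0306% of all counted fragments. With *Beta-s* added the shares were 0.0565%, 0.0189%, 0.0378% and 0.0337%. The mean sum was 339 ± 237 CPM in GCE/+ and 322 ± 20.8 CPM in GCE/GCE (SD, n = 2 each), a log2 ratio of -0.07. In an exact two-sided permutation test over the samples p was 1, where 2 samples against 2 cannot give less than 0.333. The spread between the GCE/+ embryos was larger than the difference between genotypes, and the log2 ratio was 0.91 without GCE/+ replicate 1 and -0.65 without GCE/+ replicate 2. In sorted bulk samples, fewer red cells and less RNA per red cell cannot be told apart.

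Embryonic globins made up most of the globin counts. Within the set, *Hba-x*, *Hbb-bh1* and *Hbb-y* held 99.4% (95% Wilson interval 99.3 to 99.5) and 99.2% (99.0 to 99.4) of globin fragments in GCE/+, and 99.1% (99.0 to 99.3) and 99.3% (99.1 to 99.4) in GCE/GCE. These shares leave out the abundant adult row. With *Beta-s* counted among the later globins, the embryonic share was 89.6% (89.3 to 89.9) and 90.2% (89.6 to 90.8) in GCE/+, and 87.9% (87.4 to 88.3) and 90.3% (89.9 to 90.7) in GCE/GCE. If all fragments shared between near-identical genes had been lost, and counts are scaled up to correct for it, the embryonic share including *Beta-s* was 74.9% to 79.5% in the 4 samples. All these shares take the uncertain adult alpha rows at their near-zero counts. In the beta locus alone, with *Beta-s* included, *Hbb-bh1* and *Hbb-y* held 88.6% and 89.3% of fragments in GCE/+ and 86.9% and 89.4% in GCE/GCE, or 73.3% to 77.8% after the same scaling. Within the beta-like rows the embryonic genes thus outnumbered the later ones in each sample. Whether the later fragments came from primitive or definitive cells was not tested.

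Genotype did not separate the embryonic share. Means of the share within the set were 99.3% ± 0.145 in GCE/+ and 99.2% ± 0.0962 in GCE/GCE (SD, n = 2 each), with an exact permutation p of 0.667. Including *Beta-s* the means were 89.9% ± 0.426 and 89.1% ± 1.73 (SD, n = 2 each), with an exact permutation p of 1. The Wilson interval of this share in GCE/GCE replicate 1 lay below those of the other samples, but GCE/GCE replicate 2 had the highest share of the 4. The intervals hold counting error within a library and no variation between embryos. The fragments carry no molecular identifiers, so copies of 1 molecule count as separate fragments and the intervals may be too narrow.

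A ratio of 2 globins within a sample does not depend on the library total. The ratio of *Hbb-y* to *Hba-x* counts was 9.19 and 9.24 in GCE/+ and 9.66 and 8.80 in GCE/GCE, although the summed globin level varied 2.96-fold among the same samples. The ratio of *Hbb-y* to *Beta-s* counts was 8.09 and 8.85 in GCE/+ and 6.91 and 8.82 in GCE/GCE.

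The balance within the embryonic beta-like genes was less constant. *Hbb-bh1* made up 1.13% (95% Wilson interval 1.01 to 1.26) and 1.26% (1.04 to 1.53) of the *Hbb-bh1* and *Hbb-y* fragments in GCE/+. In GCE/GCE it made up 1.54% (1.37 to 1.73) and 2.21% (2.00 to 2.45). Both GCE/GCE shares lay above both GCE/+ shares. The exact two-sided permutation p was 0.333, the smallest this design allows, and the Wilson intervals of the 2 GCE/GCE embryos did not overlap.

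*Alas2* and *Slc4a1* followed the globins less closely. The ratio of *Hbb-y* to *Alas2* counts was 102 and 60.5 in GCE/+ and 62.8 and 65.2 in GCE/GCE, and the ratio of *Hbb-y* to *Slc4a1* counts was 222 and 99.1 against 160 and 125. GCE/+ replicate 1, the sample with the most globin RNA, had the highest ratio of both. Between the GCE/+ embryos *Hbb-y* differed by 1.57 on the log2 scale, *Hba-x* by 1.58, *Beta-s* by 1.70, *Hbb-bh1* by 1.41 and *Hbb-b1* by 1.08, while *Alas2* differed by 0.81 and *Slc4a1* by 0.40. The median absolute difference between these embryos was 0.14 over 13469 genes averaging 1 CPM or more. In absolute size, 12 genes differed more than *Beta-s*, 16 more than *Hba-x* and 17 more than *Hbb-y*. Between the GCE/GCE embryos *Hbb-y* differed by 0.15 and *Hba-x* by 0.02, against a median absolute difference of 0.10.

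**Figure D3:**
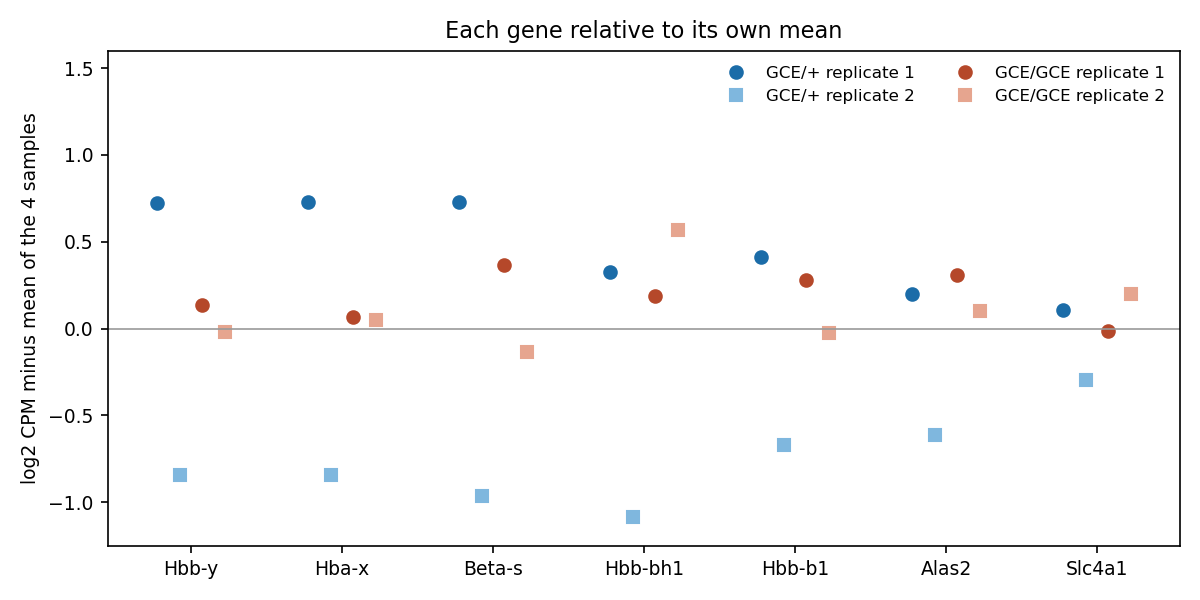
log2 CPM of each gene in each sample minus the gene's mean over the 4 samples. GCE/+ replicate 2 is the lowest sample for all 7 genes, and GCE/+ replicate 1 is the highest for *Hbb-y*, *Hba-x*, *Beta-s* and *Hbb-b1*.

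The genes nearest in pattern were sought among 13463 non-member genes averaging 1 CPM or more, by the root mean square distance of their centred log2 CPM from that of the summed globins over 4 samples. *Hbb-y* itself lay at 0.0089, but it made up 87.4% to 88.7% of the summed globin counts, so its closeness was fixed in advance. *Hba-x*, also a part of the sum at 9.17% to 9.93%, lay at 0.041, closer than all 13463. The 5 nearest others were *Car2* at 0.131, *Hsd3b6* at 0.134, *Angptl7* at 0.145, *Beta-s* at 0.149 and *Cxcr2* at 0.151. *Car2* encodes carbonic anhydrase 2, which red cells hold in quantity, and measured 3.40 and 1.30 CPM in GCE/+ and 1.98 and 2.07 CPM in GCE/GCE. *Hbb-b1* lay at 0.193 with 10 non-members closer, *Alas2* at 0.303 with 40 closer, *Hbb-bh1* at 0.366 with 121 closer and *Slc4a1* at 0.430 with 433 closer. With 4 samples such distances are a description.

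The genotypes were then compared gene by gene with edgeR's quasi-likelihood test over 15645 genes with Benjamini-Hochberg adjustment at 0.1. *Hba-a1*, *Hba-a2* and *Hbb-b2* did not pass the filter on low counts, and of the 6 members tested 0 were called, where 1.82% of all genes tested were. At an unadjusted p under 0.05, 0 members passed against 10.5% of all genes, and DESeq2 also called 0, against 3.18%. The groups overlapped in all 6, whereas 38.4% of all genes tested had groups that did not overlap.

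The fold changes had wide intervals, so with 2 samples a group a difference within these bounds remained possible. The bounds are not adjusted for the number of genes tested and are no limit of detection. They also depend on the tool. DESeq2 gave larger standard errors for *Hbb-y* (0.74), *Hba-x* (0.74) and *Beta-s* (0.82), and a slightly smaller one for *Hbb-bh1* (0.35). Differences beyond the edgeR bounds are therefore not excluded. For *Hbb-y* the log2 fold change of GCE/GCE over GCE/+ was -0.08 (SE 0.38, 95% interval -0.96 to 0.79, edgeR adjusted p = 0.980). *Hba-x* gave -0.09 (SE 0.38, -0.97 to 0.79, edgeR adjusted p = 0.978). *Hbb-bh1* had the largest estimate of the members, 0.59 (SE 0.37, -0.26 to 1.44, edgeR adjusted p = 0.707). *Alas2* gave 0.35 (SE 0.26, edgeR adjusted p = 0.773), *Slc4a1* 0.17 (SE 0.23, edgeR adjusted p = 0.922) and *Hbb-b1* 0.15 (SE 0.33, edgeR adjusted p = 0.960). *Beta-s*, outside the set, gave 0.02 (SE 0.43, edgeR adjusted p = 0.997).

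Single embryos decided the sign for the abundant globins. Without GCE/+ replicate 1, *Hbb-y* (log2 0.90, edgeR adjusted p = 0.0109), *Hba-x* (0.90, edgeR adjusted p = 0.0186) and *Hbb-bh1* (1.47, edgeR adjusted p = 0.0600) were called higher in GCE/GCE, with 1.25% of all genes called. Without GCE/+ replicate 2, *Hbb-y* (-0.67, edgeR adjusted p = 0.0155) and *Hba-x* (-0.67, edgeR adjusted p = 0.0146) were called lower, with 6.03% of all genes called. Without GCE/GCE replicate 1, *Hbb-bh1* was called higher (0.76, edgeR adjusted p = 0.0695, 4.69% of all genes). Without GCE/GCE replicate 2, *Hba-a2* entered the test and was called higher (3.44, edgeR adjusted p = 0.0158, 2.57% of all genes), on 18 fragments in the remaining GCE/GCE sample. In each of these fits the lone sample of a group is assumed to vary like the other group.

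**Figure D4:**
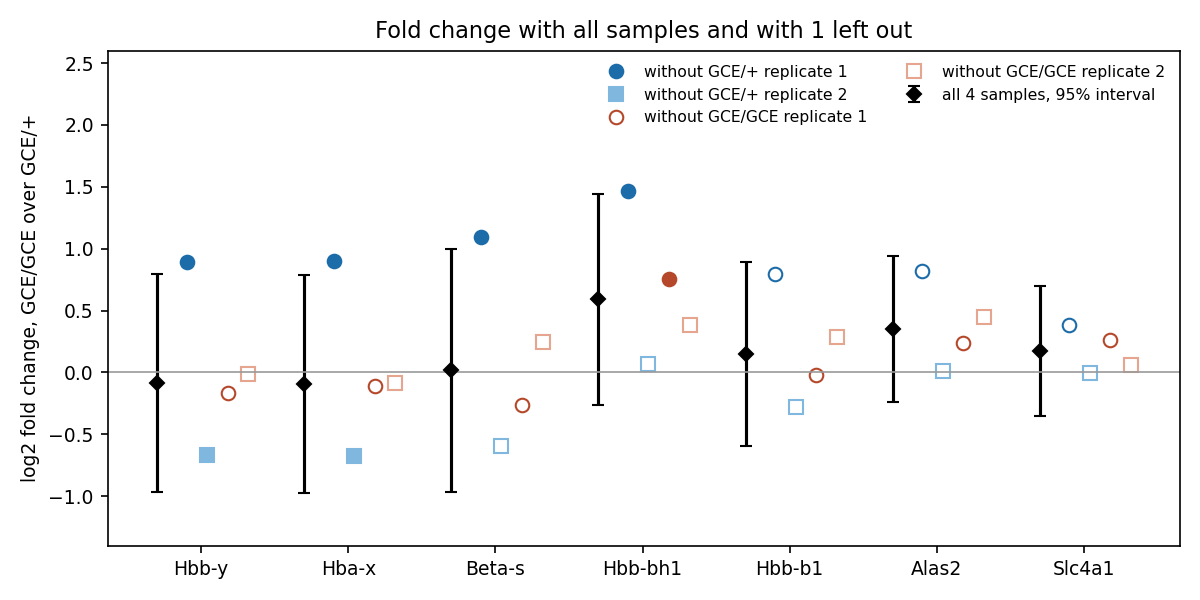
log2 fold change of GCE/GCE over GCE/+ for 6 members and *Beta-s*. Black diamonds use all 4 samples with 95% intervals from edgeR's standard errors, and coloured points leave out 1 sample, filled where the adjusted p was under 0.1. All black intervals cross 0, and *Hbb-y* moves from 0.90 without GCE/+ replicate 1 to -0.67 without GCE/+ replicate 2.

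Red cell genes beyond the set were taken from 4 lists of transcription factors, haem and iron genes, membrane and cytoskeleton genes, and other erythroid genes. Of 71 listed genes 70 had a row, 61 were tested, 1 was called higher and 0 lower, a share near the 1.82% called over all genes tested. Their median log2 fold change was -0.02, beside 0.00 over all genes tested. The called gene was *Sox6* (log2 0.97, SE 0.20, edgeR adjusted p = 0.0806), with 709 and 998 fragments in GCE/+ and 1660 and 1932 in GCE/GCE. SOX6 is known as a repressor of *Hbb-y* in definitive red cells and as a factor of cartilage. Between the GCE/+ embryos *Sox6* (11.6 and 19.1 CPM) ran opposite to the globins. The paper reported higher expression of cartilage genes, among them *Sox5*, *Sox9* and *Runx2*, in *Osr1*-deficient cells. Which cells held the *Sox6* RNA was not tested. *Sox6* stayed called when any 1 sample was left out (0.65 to 1.37) but not when the filter on low counts was dropped (edgeR adjusted p = 0.178). *Aqp1*, a water channel of red cells and endothelium, had a log2 fold change of 0.56 and was called by DESeq2 (adjusted p = 0.0197) but not by edgeR (adjusted p = 0.167). With single samples left out, *Aqp1* joined *Sox6* without GCE/+ replicate 1 and *Lmo2* without GCE/+ replicate 2. *Aqp1* and *Ikzf1* joined it without GCE/GCE replicate 1, and *Aqp1* and *Gata2* without GCE/GCE replicate 2.

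Several erythroid genes were near the floor, with 5 of the 70 at or under 3 fragments in every sample and 10 at a mean of 10 fragments or fewer, while others of the lineage were not. *Ermap*, a red cell membrane protein, had 72 to 102 fragments, and *Rhd*, a blood group protein, had 28 to 61. Among the transcription factors, *Gata1* had 7 and 3 fragments in GCE/+ and 5 and 2 in GCE/GCE. *Gfi1b*, a repressor of the erythroid and megakaryocyte lineages, had at most 3 fragments in each sample. *Klf1* had 30 and 3 fragments in GCE/+ and 7 and 21 in GCE/GCE, the lowest again in GCE/+ replicate 2. These 3 and the other genes of this paragraph were named after their values were seen. Of the membrane genes, *Rhag*, *Icam4* and *Cldn13* had at most 3 fragments in each sample. *Hemgn*, a nuclear protein of erythroid progenitors, had 2 to 5 fragments, and *Car1*, the main red cell carbonic anhydrase of adults, had 0 in all samples. *Ahsp* and *Hbb-bh0* were not analysed here.

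The genes of highest mean level in each list were *Ldb1* (188 CPM), *Bcl11a* (73.5 CPM) and *Zbtb7a* (31.6 CPM), which encode nuclear regulators, and *Tfrc* (84.5 CPM), *Abcb10* (43.4 CPM) and *Alad* (40.2 CPM), which serve iron uptake and haem synthesis. The membrane genes *Epb4.1* (193 CPM), *Slc14a1* (104 CPM) and *Gypc* (48.2 CPM) and the other erythroid genes *Prdx2* (363 CPM), *Bnip3l* (149 CPM) and *Xpo7* (128 CPM) were also present. None of these 12 was called. Summed per list, the 4 erythroid lists differed between the GCE/+ embryos by 0.961-fold to 1.01-fold, where the 7 globins differed 2.96-fold. The remaining globins *Hbb-bh2*, *Hbq1a* and *Hbq1b* had at most 9 fragments in each sample.

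Leukocyte and macrophage markers did not follow the globin difference between the GCE/+ embryos, whereas most endothelial and limb mesenchyme markers shared its direction. The summed level of 16 macrophage genes was 427 and 435 CPM in GCE/+ and 286 and 212 CPM in GCE/GCE, and that of 12 pan-leukocyte genes was 110 and 115 CPM against 67.9 and 49.3 CPM. Both sums separated the genotypes, while between the GCE/+ embryos the macrophage sum differed 0.981-fold. Of the macrophage genes 10 of 16 were called lower in GCE/GCE, and of the pan-leukocyte genes 7 of 12, where 0.927% of all genes tested were called lower. Their median log2 fold changes were -0.91 and -0.94. *Tyrobp*, an adaptor of myeloid receptors, fell by 1.13 on the log2 scale (edgeR adjusted p = 0.0275). *Mrc1*, the mannose receptor, fell by 0.82 (edgeR adjusted p = 0.0275), and *Spi1*, the transcription factor PU.1 (row *Sfpi1*), fell by 1.23 (edgeR adjusted p = 0.0270).

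In the list for haem and iron handling by macrophages 1 of 10 genes tested was called, *Hmox1*, the haem-degrading oxygenase, which fell by 0.81 (edgeR adjusted p = 0.0328). Of 8 megakaryocyte and platelet genes tested, *Pf4* was called and fell by 0.88 (edgeR adjusted p = 0.0645), and 5 of the 13 listed had a mean of 10 fragments or fewer. None of 14 endothelial genes and none of 10 skeletal muscle genes was called by edgeR, but 8 endothelial and 3 muscle genes had an unadjusted p under 0.05, where 10.5% of all genes tested did. Of the endothelial genes 12 had a negative fold change, with a median of -0.44 on the log2 scale. Of 12 limb mesenchyme genes 1 was called, *Osr1* itself, and the list summed to between 16362 and 21459 CPM in the 4 samples. The highest mean levels were those of *Col3a1* (8224 CPM) and *Col1a2* (4980 CPM) in the mesenchyme list, *Ftl1* (1156 CPM) and *Lrp1* (626 CPM) in the haem and iron list, *Mrc1* (78.7 CPM) and *Csf1r* (48.4 CPM) among macrophage genes and *Laptm5* (31.4 CPM) and *Coro1a* (15.9 CPM) among leukocyte genes. The other lists were led by *Myh3* (38.4 CPM) and *Myog* (25.9 CPM) for muscle, *Kdr* (21.8 CPM) and *Tek* (20.5 CPM) for endothelium, and *Itgb3* (11.0 CPM) and *Pf4* (6.38 CPM) for platelets. Over all these lists 20 of 81 genes tested were called, where 1.82% of all genes were. The count was 11 without GCE/+ replicate 1 (1.25% of all genes), 31 without GCE/+ replicate 2 (6.03%) and 34 without GCE/GCE replicate 1 (4.69%). The endothelial sum was 166 and 136 CPM in GCE/+ and 136 and 117 CPM in GCE/GCE. Between the GCE/+ embryos it differed 1.22-fold, and 13 of the 14 genes were lower in GCE/+ replicate 2, as the globins were. So were 10 of 12 limb mesenchyme genes (sum 1.10-fold) and 9 of 10 tested genes for macrophage haem and iron handling (1.11-fold). In the other lists the direction was that of 8 of 16 macrophage, 6 of 12 pan-leukocyte, 4 of 8 tested platelet and 1 of 10 muscle genes. The direction was thus not particular to endothelium, and its share over all genes was not computed. The part of these cell types in the globin values was not tested.

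**Figure D5:**
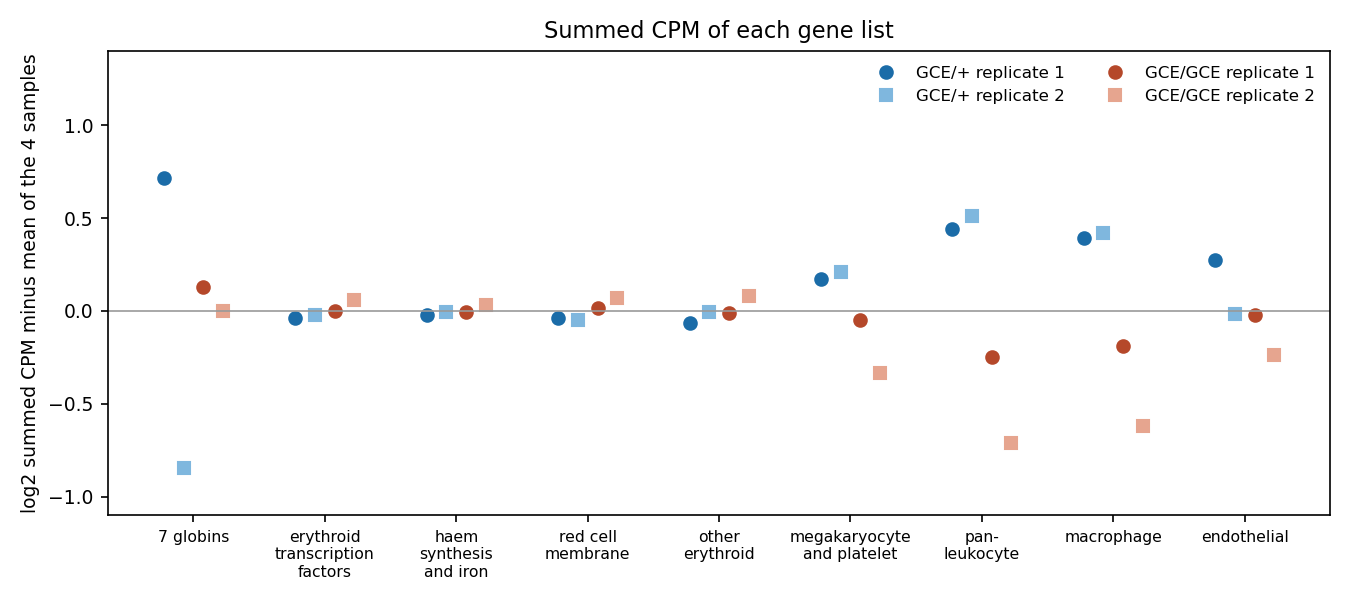
Summed CPM of the 7 globins and of 8 gene lists in each sample, as log2 minus the mean of the 4 samples. The globins spread most between the 2 GCE/+ embryos (506 and 171 CPM), the erythroid lists stay near 0, and the pan-leukocyte and macrophage lists separate GCE/+ from GCE/GCE.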

How the data were processed

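Osr1+ cells of E13.5 limbs from 2 *Osr1* GCE/+ and 2 *Osr1* GCE/GCE embryos were sequenced as 50-base read pairs. The authors mapped the reads to mm9 with TopHat2, using UCSC gene models, and deposited raw counts of fragments per gene from HTSeq (strict intersection mode) without normalization. Strandedness and the handling of reads with several best positions are not given in the sources used here. Each deposited table was taken as 1 sample, and embryos of a genotype were the replicates. Genes were filtered with filterByExpr, scaled by TMM and tested with edgeR 4.0.16 (glmQLFit with legacy = FALSE, glmQLFTest, two-sided, Benjamini-Hochberg over 15645 genes, threshold 0.1, as in the study). DESeq2 1.42.0 was an alternative. Standard errors were the log2 fold change divided by the root of F, and 95% intervals used the t distribution with the fit's prior (6.38) plus residual (2) degrees of freedom. CPM used whole-library totals times the TMM factor, which lay between 0.994 and 1.01.

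The mapping build differs from that of the reference used here. Symbols were therefore matched by name, and sequences and lengths were taken from GENCODE vM21 (GRCm38) and RefSeq (GRCm38.p6). Summed levels and shares were compared by exact permutation over samples. Members and gene lists were chosen with earlier results of these data known. Named were the 9 members, list genes that were called, the 3 genes of highest mean CPM in each erythroid list, the 2 of highest mean CPM and up to 3 called genes in each other list and the 5 genes nearest in pattern. *Beta-s* and further genes named as such were added after their values were seen. The fitting script was tested on simulated data.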

Additional observations from a re-analysis of the deposited data

How the results depend on the processing

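No member was called under any of the alternatives that kept all 4 samples: DESeq2, RLE scaling, library totals alone, scaling without the members, no filter, at least 10 counts in every sample, near-identical genes added, an adjusted p under 0.05, the replicate block, and the legacy fit added after seeing the data. Leaving out 1 sample gave 1 to 3 called members. Log2 fold changes then ranged from -0.67 to 0.90 for *Hbb-y* and *Hba-x*, -0.28 to 0.80 for *Hbb-b1*, -0.0077 to 0.39 for *Slc4a1*, -0.59 to 1.10 for *Beta-s* and -0.65 to 0.91 for the summed globins. The values -0.02 for *Hbb-b1* and -0.26 for *Beta-s*, both without GCE/GCE replicate 1, were also of the opposite sign.

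The labels number the samples 1 and 2 in each group but name no shared litter, and deviations of same-numbered samples correlated at -0.0035 over 13463 genes, so the numbers were not taken as pairs. With the replicate block *Hbb-y* (0.11) and *Hba-x* (0.10) turned in sign without being called, and 2 other erythroid genes were called. The 1 called gene of the other erythroid lists became 2 with DESeq2, 0 without the filter, 0 at an adjusted p under 0.05 and 2 to 3 with 1 sample left out. The 20 called markers of other cell types became 10 without the filter, 11 at an adjusted p under 0.05 and 11 to 34 with 1 sample left out. Over all genes, 285 calls became 502 with DESeq2, 127 without the filter, 130 at an adjusted p under 0.05 and 199 to 961 with 1 sample left out. The difference in embryonic share, -0.11 percentage points, was -0.63 in the alpha locus alone, where *Hba-a2* counts are few, -0.38 when scaled by unique fragments, -0.79 with *Beta-s* added and -1.49 with both, the last 3 chosen after seeing the data. The causes of these changes were not tested. The depth left *Hba-a1*, *Hba-a2* and *Hbb-b2* at or near the floor of 3 counts.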
